A study of Mus musculus with 9 samples.

Results

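WNT signaling is held in check by genes that the pathway itself turns on. In the canonical pathway, WNT ligands bind Frizzled receptors and LRP co-receptors, the complex that degrades beta-catenin is switched off, and beta-catenin joins TCF and LEF factors on DNA. Among the genes it activates are ubiquitin ligases that remove the receptors, a secreted enzyme that disables the ligands and scaffolds that restore beta-catenin breakdown. In the female reproductive tract the pathway is known for its part in ovarian development and in the ovarian surface epithelium.

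Expression of 10 WNT pathway genes, feedback regulators and others, out of 48230 genes analysed, was described in BeCon cells, a mouse ovarian tumor line. They were the receptor-removing ubiquitin ligases Rnf43 and Znrf3, the ligand Rspo1 and its receptor Lgr5, the secreted inhibitors Notum and Sfrp4, the intracellular inhibitors Axin2 and Nkd1, and the transcription factors Lef1 and Tcf7. The genes were chosen by name from the deposited table of FPKM (fragments scaled to transcript length and to the mapped fragments of the library), with their FPKM in all groups already known. Their values are therefore descriptions without a test. All 10 were found, and all 10 passed the filter of the fit across genes, which asked for an FPKM of 1 or more in 4 or more of the 8 mouse libraries.

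The study holds 9 libraries in 3 groups. In the vehicle group (4 libraries) and the YKL-05-099 group (4 libraries), B6 mice carried BeCon tumors, and viable tumor cells lacking CD45 and bearing MHC class I were sorted from the ascites. YKL-05-099 inhibits the salt-inducible kinases. The labels used here state neither its dose and schedule, nor the age of the mice, nor the genotype of BeCon cells. The last group is a single library of BeCon cells grown in vitro, for which no sorting is described, so any difference from it has no replicate check. All groups come from the same tumor cell line. Whether a mouse library is 1 animal or several is not stated, and the spread behind the p-values may in part be technical. The vehicle library names share a prefix and the YKL-05-099 names share another, so a cage or batch that follows it cannot be told apart from treatment.

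The libraries held roughly 23000000 to 35000000 fragments each, an estimate from the lowest values. All 8 mesothelial markers had means of at least 1 FPKM in both mouse groups and 7 of the 8 reached it in culture, where Lrrn4 was 0.990 FPKM. Their summed FPKM was 1855 to 1934 in vehicle, 1814 to 1856 in YKL-05-099 and 1185 in culture. Wt1 stood at 501 to 565 FPKM in mice and 373 in culture, Msln at 27.0 to 39.3 FPKM and 41.6, and Upk3b at 548 to 633 FPKM and 118. Of 6 epithelial markers, Krt8, Krt18 and Krt7 had means of at least 1 FPKM in both mouse groups, whereas Epcam and Cdh1 were below 1 FPKM in each library and Pax8 was listed at 0 in most. Transcripts of several leukocyte lists differed between the groups, although the sort was for cells lacking CD45. The summed FPKM of 10 pan-leukocyte markers was 40.0 to 80.4 in vehicle, 11.6 to 26.1 in YKL-05-099 and 3.79 in cultured cells. The summed FPKM of 11 macrophage markers was 132 to 288 in vehicle, 19.3 to 72.7 in YKL-05-099 and 10.1 in cultured cells. For 7 B and plasma cell markers it was 13.8 to 52.96, 0.625 to 1.41 and 0.462, with Igkc at 9.46 to 39.9, 0.0526 to 0.473 and 0. The part of these other transcripts in the differences below was not tested. In bulk samples, fewer cells of a type and less RNA per cell cannot be told apart.

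The upstream sequences of 4 genes are shown because Axin2, Rnf43 and Rspo1 were far lower in culture, and because Lef1 was the sole gene among those matched whose windows held the core letters read by TCF and LEF factors. Each is the 250 bases before a transcription start in RefSeq, on GRCm38.p6 and the plus strand. They lie at chr11:108920099-108920348 (Axin2), chr11:87662837-87663086 (Rnf43), chr4:124986180-124986429 (Rspo1) and chr3:131110047-131110296 (Lef1). The Rnf43 window lies inside the span of the gene given below, which starts at 87662722, and so comes before a later start. Capitals mark CG dinucleotides in the first 3 sequences and CTTTG in Lef1.
Axin2: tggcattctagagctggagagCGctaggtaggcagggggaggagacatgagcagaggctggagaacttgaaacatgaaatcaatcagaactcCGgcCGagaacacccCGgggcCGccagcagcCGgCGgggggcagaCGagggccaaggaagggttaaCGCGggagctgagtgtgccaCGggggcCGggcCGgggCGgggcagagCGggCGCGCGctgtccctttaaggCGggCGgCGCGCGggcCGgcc
Rnf43: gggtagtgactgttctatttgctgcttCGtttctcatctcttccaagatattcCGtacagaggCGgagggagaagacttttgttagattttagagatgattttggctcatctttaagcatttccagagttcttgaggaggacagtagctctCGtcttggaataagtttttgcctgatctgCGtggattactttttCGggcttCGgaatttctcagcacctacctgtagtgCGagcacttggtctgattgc
Rspo1: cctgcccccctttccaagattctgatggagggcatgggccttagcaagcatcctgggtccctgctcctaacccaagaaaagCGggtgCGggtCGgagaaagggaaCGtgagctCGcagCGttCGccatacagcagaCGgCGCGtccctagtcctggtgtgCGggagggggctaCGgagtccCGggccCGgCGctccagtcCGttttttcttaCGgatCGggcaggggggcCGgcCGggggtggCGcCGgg
Lef1: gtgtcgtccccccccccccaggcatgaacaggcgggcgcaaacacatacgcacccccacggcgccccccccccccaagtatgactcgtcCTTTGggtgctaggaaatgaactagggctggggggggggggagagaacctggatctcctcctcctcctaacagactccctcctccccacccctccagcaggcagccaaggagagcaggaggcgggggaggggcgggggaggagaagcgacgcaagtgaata

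These windows differ in base composition. Axin2 holds 24 CG dinucleotides and Rspo1 22, against a median of 6 over 32851 windows of the same length. The Rnf43 window shown holds 8 and another, not shown, holds 2. Also not shown are Nkd1, which was lower in culture too and holds 6, and Tcf7, which kept 62.5% of its vehicle mean there and holds 37 and 15. Any relation of CG content to the level in culture was not tested. RefSeq windows were matched for 6 of the 10 genes, 11 windows in all. The letters CTTTG, on either strand, were in 4 of the 11, all of them Lef1 windows, and in 48.6% of all windows. The Lef1 windows chr3:131110047-131110296 and chr3:131110073-131110322 overlap and share a CTTTG, so the 4 are not separate hits. The other Lef1 windows lie inside the span of the gene given below. The longer forms CTTTGAA (4.46% of all windows) and CTTTGAT (3.21%) were in none of the 11. Neither was the CREB-type element TGACGTCA (1.55% of all windows) nor its shorter form TGACG (17.8%), which overlaps it. A match is a description of letters, and its absence says only that they are not in this window.

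The wider contrast was between mouse and culture. In the cultured library 9 of the 10 genes were below all 8 mouse libraries and Sfrp4 was above all 8. The cultured value was below all mouse libraries for 36.2% of the 12296 genes that reached 1 FPKM in culture or in 4 mouse libraries. A stricter rule of size called a gene apart when it also lay at least 2 log2(FPKM + 1) units from the vehicle mean. By it, Rnf43, Rspo1, Axin2 and Nkd1 were apart and lower in culture, and Sfrp4 was apart and higher. Over all genes 5.14% were apart, 3.06% lower and 2.08% higher in culture. Since these values were in view when the genes were picked, nothing is read from the counts.

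**Figure D1:**
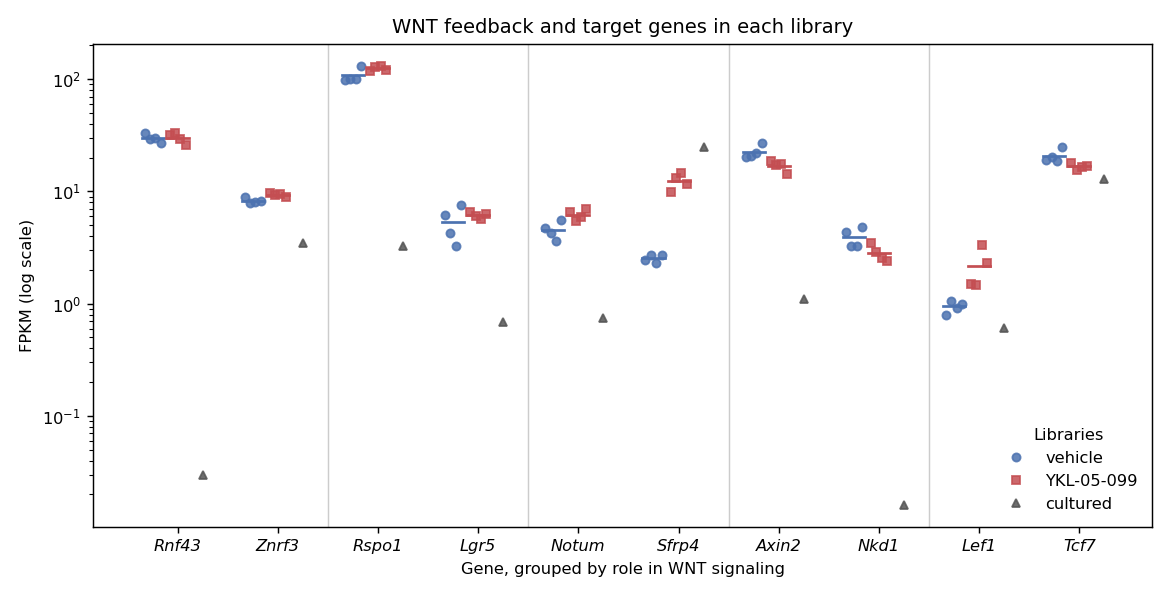
FPKM of the 10 genes (log scale) in each of the 9 libraries, with the group mean as a line; circles are vehicle, squares YKL-05-099 and triangles the cultured library. The cultured triangle lies under the mouse points for 9 genes and above them for Sfrp4, and the YKL-05-099 squares lie clear of the vehicle circles for Sfrp4 and Lef1.

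Rnf43 encodes a membrane ubiquitin ligase that clears Frizzled receptors from the cell surface. It stood at 33.2, 29.2, 29.7 and 27.0 FPKM in the vehicle libraries, at 31.6, 33.1, 29.1 and 26.1 FPKM in the YKL-05-099 libraries and at 0.0300 FPKM in culture. The mouse groups overlapped across nearly their whole range, and the gene was close to undetected in cultured cells. Its log2(FPKM + 1) level was 0.01 higher in YKL-05-099 than in vehicle cells (SE 0.0939), and the cultured-minus-vehicle difference was -4.90. The cultured value corresponds to roughly 0 to 4 fragments, depending on the transcript, so no fold is given. The gene lies on chromosome 11 (87662722 to 87735539, GRCm38, plus strand) and overlaps a small nuclear RNA gene on the other strand and an intronic transcript on its own strand.

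Znrf3, the paralog of Rnf43 with the same role, kept more of its level in culture. Its values were 8.87, 7.91, 7.99 and 8.24 FPKM in vehicle, 9.60, 9.32, 9.49 and 8.90 with YKL-05-099 and 3.45 FPKM in cultured cells. The mouse groups were just clear of each other, with the highest vehicle and the lowest YKL-05-099 library nearly equal. The treated level was higher by 0.16 on the log2 scale (SE 0.0395), and the separation was lost after median-of-ratios or TPM scaling. In culture Znrf3 was at 41.8% of its vehicle mean, a log2 difference of -1.05.

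Rspo1 encodes R-spondin 1, a secreted protein that binds LGR receptors and takes RNF43 and ZNRF3 off the membrane, which raises WNT sensitivity. It had the highest level of the 10 genes in both mouse groups: 99.3, 101, 100.4 and 131 FPKM in the vehicle libraries, and 118, 129, 129.96 and 122 FPKM after YKL-05-099. In culture it was 3.24 FPKM. The cultured value was 3.00% of the vehicle mean. The mouse groups overlapped only through vehicle replicate 4; the treated level was higher by 0.22 (SE 0.102), and by 0.31 without that library. The other R-spondin genes Rspo2 and Rspo4 were listed at 0 in all libraries, and Rspo3 in all but 1.

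Lgr5, an R-spondin receptor and a marker of epithelial stem cells, had the widest vehicle spread relative to its mean. It measured 6.19, 4.22, 3.26 and 7.61 FPKM there and 6.49, 6.08, 5.71 and 6.25 FPKM in YKL-05-099, where the libraries were close together. The treated values all lay inside the vehicle range (log2 difference 0.23, SE 0.23). The difference was 0.39 without vehicle replicate 4 and 0.05 with the pan-leukocyte covariate described below. In culture Lgr5 was 0.682 FPKM, a difference from vehicle of -1.86. The related receptor gene Lgr4 was higher than Lgr5 in each library, at 77.2 ± 7.72 FPKM (SD, n = 4) in vehicle cells, 78.5 ± 3.77 FPKM (SD, n = 4) in treated cells and 46.3 FPKM in culture.

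Sfrp4 showed the largest treatment difference of the 10 and the opposite pattern in culture. It encodes a secreted Frizzled-related protein that can bind WNT ligands. Vehicle libraries held 2.47, 2.73, 2.32 and 2.71 FPKM, YKL-05-099 libraries 9.92, 13.2, 14.7 and 11.7 FPKM, and the cultured library 25.1 FPKM. The groups did not overlap, and the cultured cells exceeded both. The treated mean was 4.85 times the vehicle mean (log2 difference 1.90, SE 0.119), and the cultured value was 9.80 times the vehicle mean. The summed FPKM of 9 fibroblast markers was 609 to 654 in vehicle, 517 to 598 in YKL-05-099 and 310.2 in culture, most of it Dcn. The members differed in direction: Col1a2 was 12.4 to 24.9, 2.03 to 3.49 and 0.0668 FPKM, whereas Col1a1 was 7.12 to 10.9, 3.51 to 4.84 and, in culture, 32.2 FPKM. The part of these transcripts in the Sfrp4 difference was not tested. Sfrp4 has no annotated overlapping gene (chromosome 13, 19623175 to 19632821).

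Notum encodes the secreted esterase that strips the lipid from WNT ligands. It was 4.74, 4.26, 3.62 and 5.61 FPKM in vehicle, 6.51, 5.43, 5.91 and 6.96 with YKL-05-099 and 0.741 FPKM in culture. Treated libraries were mostly higher, with an overlap of vehicle replicate 4 and YKL-05-099 replicate 2 (log2 difference 0.38, SE 0.128). With the pan-leukocyte covariate described below the difference was 0.15 (SE 0.236). Notum overlaps 2 antisense genes, and without a stated strand setting for the counting their reads cannot be told apart.

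The intracellular inhibitors were lower after treatment on average and nearly absent or low in culture. Axin2, a scaffold of the beta-catenin destruction complex and a widely used readout of WNT activity, was 20.2, 20.8, 21.9 and 27.1 FPKM in vehicle, 18.5, 17.2, 17.6 and 14.4 with YKL-05-099 and 1.11 FPKM in culture. No treated library reached the lowest vehicle library. The log2 difference was -0.39 (SE 0.118), and -0.30 without vehicle replicate 4; the cultured value was 4.94% of the vehicle mean. Nkd1, an antagonist that binds Dishevelled, was 4.33, 3.28, 3.25 and 4.85 FPKM in vehicle, 3.45, 2.91, 2.55 and 2.40 with YKL-05-099 and 0.0161 FPKM in culture, about 1 to 2 fragments. Its mouse groups overlapped through YKL-05-099 replicate 1 (log2 difference -0.36, SE 0.144). The paralog Nkd2 was listed at 0 in all libraries but 1, and Axin1, which is not a WNT target, was 23.8 ± 1.16 FPKM (SD, n = 4) in vehicle and 16.2 FPKM in culture.

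The transcription factors Lef1 and Tcf7 differed in opposite directions between the mouse groups. Lef1, at the lowest level of the 10 in both, was 0.800, 1.07, 0.924 and 0.986 FPKM in vehicle, 1.48, 1.48, 3.31 and 2.32 with YKL-05-099 and 0.606 FPKM in culture. The groups were separate, with the treated libraries spread widely (log2 difference 0.66, SE 0.196). It passed the filter through the treated group, where all 4 libraries reached an FPKM of 1 against 1 in vehicle. Tcf7 was 19.0, 20.1, 18.5 and 25.1 FPKM in vehicle, 18.1, 15.6, 16.4 and 16.8 with YKL-05-099 and 12.9 FPKM in culture. The cultured values were 62.5% of the vehicle mean for Tcf7 and 64.2% for Lef1. Its mouse groups were narrowly separate (log2 difference -0.28, SE 0.104), though not after TPM scaling. Both genes are also active in T cells. Cd3d, Cd3e and Cd8a were at most 0.0265 FPKM in every library, while Lck was 0.614 to 1.40 FPKM in mice and 0.667 in culture, and Trac 0.263 to 0.846 FPKM in mice and 4.17 in culture. The 15 T and NK cell markers together summed to between 1.49 and 2.07 FPKM for vehicle, between 1.24 and 2.35 FPKM for YKL-05-099 and to 5.12 FPKM in culture.

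All 10 genes are protein coding, and 5 of them lie on chromosome 11. On GRCm38, Axin2 spans 108920349 to 108950783 there (plus strand), Znrf3 5276324 to 5444847, Notum 120653788 to 120661175 and Tcf7 52252371 to 52283014 (all minus strand). Lgr5 lies on chromosome 10 (115450311 to 115587780, minus strand), Rspo1 on chromosome 4 (124986430 to 125009099, plus), Nkd1 on chromosome 8 (88521354 to 88594884, plus) and Lef1 on chromosome 3 (131110471 to 131224356, plus). Annotated genes on the other strand also overlap Axin2, Rspo1, Lgr5, Lef1 and Tcf7, so the limit given for Notum holds for them. Nkd1, Lef1 and Tcf7, like Rnf43, also overlap an annotated gene on their own strand, which no strand setting would separate.

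Across the 10 genes, the mouse groups were separate for 5: Znrf3, Sfrp4 and Lef1 were higher and Axin2 and Tcf7 lower in YKL-05-099 cells. Over the 11788 genes tested, 40.0% were separate, 26.5% higher and 13.5% lower, and again nothing is read from the members' counts. The median log2 difference was 0.19 for the 10 genes and 0.05 for all genes tested. Without vehicle replicate 4, Rspo1 and Notum were separate too, which made 5 higher. Leaving out a library can add a separation but cannot end one.

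**Figure D2:**
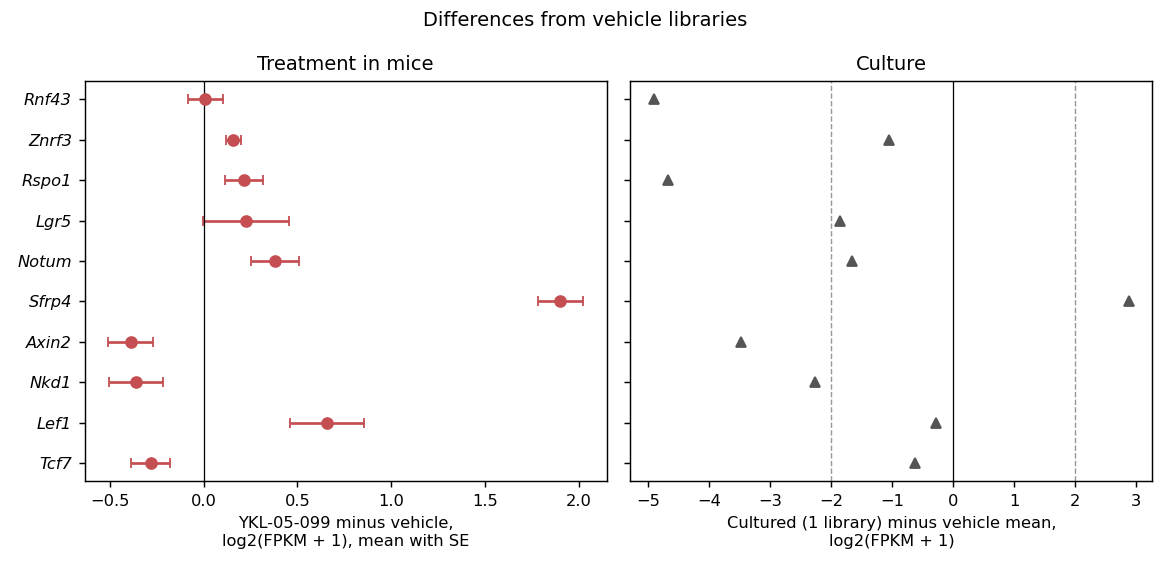
Left, YKL-05-099 minus vehicle difference in log2(FPKM + 1) for each gene, with its standard error (4 libraries a group); right, the single cultured library minus the vehicle mean, with dashed lines at the 2-unit rule of size. Sfrp4 lies farthest right in both panels, at 1.90 and 2.87, while Rnf43 lies at 0.01 on the left and -4.90 on the right.

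Within the vehicle group, 6 of the 10 genes had their highest value in replicate 4 (Rspo1, Lgr5, Notum, Axin2, Nkd1 and Tcf7). Over all genes tested the highest vehicle value was in replicate 4 for 31.7%. Deviations from the group means were most alike for Lgr5 and Notum (Pearson r 0.87 over 8 mouse libraries, and 0.77 without vehicle replicate 4) and for Lgr5 and Nkd1 (0.82 and 0.72). Rspo1 and Tcf7 deviated together with that library (0.73) and not without it (0.04). These correlations are descriptions over few libraries.

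**Figure D3:**
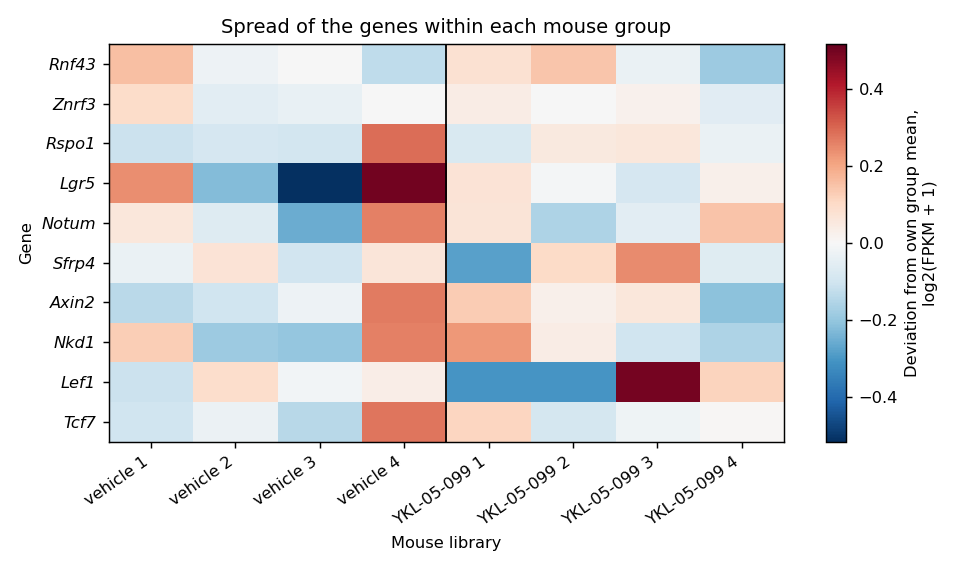
Deviation of each gene from the mean of its own group in log2(FPKM + 1), for the 8 mouse libraries; red is above and blue below the group mean. Vehicle replicate 4 is red for Rspo1, Lgr5, Notum, Axin2, Nkd1 and Tcf7, and Lef1 is highest in YKL-05-099 replicate 3.

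The order of the levels, which FPKM allows because it is scaled per length, also changed with the setting. In vehicle cells it ran from Rspo1 (108 ± 15.6 FPKM, SD, n = 4) through Rnf43 (29.8 ± 2.58), Axin2 (22.5 ± 3.16), Tcf7 (20.7 ± 3.01), Znrf3 (8.25 ± 0.431), Lgr5 (5.32 ± 1.95), Notum (4.56 ± 0.839), Nkd1 (3.93 ± 0.792) and Sfrp4 (2.56 ± 0.199) to Lef1 (0.944 ± 0.112). The ranges of Rnf43 and Axin2, Axin2 and Tcf7, Lgr5 and Notum, and Notum and Nkd1 overlapped. Within each vehicle library, however, Axin2 was above Tcf7 and Notum above Nkd1. The order of Rnf43 and Axin2, and of Lgr5 and Notum, varied between the libraries. In YKL-05-099 cells Sfrp4 (12.4 ± 2.05 FPKM, SD, n = 4) took the fifth place, above Znrf3. In culture Sfrp4 came first and Tcf7 second, and Rnf43 and Nkd1 came last.

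By the highest Pearson r of log2(FPKM + 1) over the 9 libraries, 2 genes were taken for each of the 10. Rspo1 was most like Pcnx2 (r 0.999, with 81.5, 92.0 and 0.972 FPKM in vehicle, YKL-05-099 and culture) and Nkain4. Axin2 was most like the immediate early gene Egr1 (r 0.996, with 1399, 1096 and 29.8 FPKM) and Mmp24. Rnf43 was closest to Bcr and Ormdl3, Znrf3 to Ppt1 and Fcho1, Lgr5 to Pipox and Pde1a, Nkd1 to Emx2os and Sp3, Notum to Tmem50b and Pcyox1, Sfrp4 to Plekha5 and Taf6l, Lef1 to Zfp963 and Phyhip, and Tcf7 to Smad3 and Zbtb42. The coefficients ran from 0.933 to 0.999. All of them share the same 9 libraries, the cultured one included, and are descriptions.

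The rest of the pathway was taken from 8 lists of 100 genes written by role, and here the treatment comparison was tested. These lists too were chosen with earlier results of these data known, which limits what the calls show. Of the 100 genes 56 passed the filter, and limma called 15 higher and 18 lower in YKL-05-099 cells (adjusted p under 0.05). Over all genes tested 43.2% were called, 28.0% higher and 15.1% lower. The median log2 fold change was -0.09 for the 56 genes and 0.05 for all. The balance depended on scaling: after median-of-ratios scaling 9 pathway genes were called higher and 23 lower, and over all genes 2499 and 2470, where the deposited values gave 3304 and 1785.

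Among the ligands 2 of 8 tested genes rose and 5 fell, where 28.0% and 15.1% of all genes tested did. The lists are short, and nothing is read from the count of any of them. The steepest fall was that of Wnt9a, from 13.1 ± 2.35 to 5.01 ± 0.156 FPKM (SD, n = 4 each). Its log2 fold change was -1.21 with SE 0.111 (limma adjusted p = 4.88e-05). Wnt10b fell from 5.66 ± 0.613 to 3.95 ± 0.349 FPKM and Wnt11, a ligand of non-canonical signaling, from 32.1 ± 2.40 to 23.5 ± 3.76 FPKM. Wnt4 and Wnt6, named after their values were seen, were the ligands that rose. Wnt4, which has a central role in ovarian development, rose from 63.0 ± 20.1 to 84.3 ± 1.95 FPKM (limma adjusted p = 0.0423). Wnt6 rose from 29.7 ± 6.41 to 38.8 ± 2.97 FPKM (limma adjusted p = 0.0244). The vehicle libraries of Wnt4 were 52.4, 54.8, 51.8 and 93.1 FPKM, so replicate 4 again stood alone, and without it the limma adjusted p was 6.33e-06. The most abundant ligand not called, Wnt10a, was 13.3 ± 2.70 FPKM in vehicle cells and 15.7 ± 1.08 FPKM in treated cells (limma adjusted p = 0.115, and 0.0052 without vehicle replicate 4). Wls, which carries ligands to the surface, was 160 ± 6.33 and 157 ± 5.88 FPKM (limma adjusted p = 0.661).

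Of 10 tested Frizzled and co-receptor genes 2 rose and 2 fell (28.0% and 15.1% of all genes tested). Ryk, a WNT-binding pseudokinase, rose from 54.6 ± 1.02 to 66.5 ± 1.92 FPKM (log2 fold change 0.28, limma adjusted p = 0.000399). Fzd4 fell from 16.8 ± 1.95 to 12.7 ± 0.764 FPKM and the co-receptor Ptk7 from 55.7 ± 1.92 to 48.1 ± 1.58 FPKM. Fzd1 was 28.0 ± 6.25 and 24.5 ± 1.51 FPKM (limma adjusted p = 0.296), and Lgr4, the sole tested gene of its list, was not called (limma adjusted p = 0.758).

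Of the 3 tested secreted or membrane antagonists 2 were called higher and 1 lower (28.0% and 15.1% of all genes tested). None of the 3 calls held with the pan-leukocyte covariate described below (limma adjusted p = 0.0781 for Wif1, 0.633 for Sfrp2 and 0.806 for Kremen1). Wif1, which sequesters WNT ligands, rose from 1.97 ± 0.788 to 4.88 ± 0.738 FPKM (a log2 fold change of 1.01 with SE 0.181, limma adjusted p = 0.00175). Sfrp2, a relative of Sfrp4, fell from 1.60 ± 0.407 to 0.734 ± 0.143 FPKM (log2 fold change -0.57, limma adjusted p = 0.00499). It passed the filter through vehicle, where all 4 libraries reached 1 FPKM against 0 of the treated ones. Kremen1, a receptor for DKK proteins, rose from 11.5 ± 0.552 to 12.8 ± 0.448 FPKM (limma adjusted p = 0.0452), a call that ended after median-of-ratios scaling (limma adjusted p = 0.174). Both Wif1 and Sfrp2 were low, and in culture they were 0.111 FPKM and listed at 0.

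In the Dishevelled and destruction complex list 4 of 16 tested genes rose and 3 fell (28.0% and 15.1% of all genes tested). Dvl2 rose from 20.9 ± 1.495 to 29.4 ± 1.52 FPKM (log2 fold change 0.48, limma adjusted p = 0.000246) and the casein kinase gene Csnk1d from 78.8 ± 2.20 to 97.9 ± 0.994 FPKM, whereas its paralog Csnk1e fell from 77.9 ± 1.89 to 62.3 ± 4.94 FPKM. The core genes shifted little in size. The mouse groups were nevertheless separate for Ctnnb1, Axin1 and Gsk3b, each lower after treatment, as were 13.5% of all genes tested. Ctnnb1, encoding beta-catenin, was 187 ± 3.96 and 176 ± 2.04 FPKM (limma adjusted p = 0.083), Apc 9.05 ± 0.612 and 8.48 ± 0.969 FPKM (limma adjusted p = 0.397) and Axin1 23.8 ± 1.16 and 22.2 ± 0.412 FPKM (limma adjusted p = 0.111). After median-of-ratios scaling Ctnnb1 and Axin1 were called lower (log2 fold changes -0.15 and -0.15). Without vehicle replicate 4 the limma adjusted p was 0.0471 for Ctnnb1 and 0.221 for Axin1. Gsk3b, a kinase that marks beta-catenin for breakdown, fell from 24.3 ± 1.09 to 21.6 ± 0.916 FPKM (limma adjusted p = 0.0209).

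Nuclear partners of beta-catenin moved in both directions, 4 of 11 up and 4 down (28.0% and 15.1% of all genes tested). The Groucho-type corepressors went opposite ways: Tle3 fell from 30.6 ± 4.77 to 16.6 ± 0.797 FPKM (a log2 fold change of -0.83 with SE 0.0940, limma adjusted p = 0.000139), and Tle2 rose from 6.75 ± 2.19 to 13.9 ± 0.264 FPKM (log2 fold change 0.98, limma adjusted p = 0.00101). The coactivator Pygo2 rose from 19.6 ± 1.10 to 23.5 ± 0.902 FPKM, and Bcl9l was 34.8 ± 1.47 and 35.9 ± 1.35 FPKM (limma adjusted p = 0.455). With the pan-leukocyte covariate described below the call of Tle3 held, and those of Tle2 and Pygo2 did not.

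Of 6 other target genes tested, 3 fell and 1 rose (15.1% and 28.0% of all genes tested). The cell cycle gene Ccnd1 fell from 69.4 ± 5.77 to 54.5 ± 5.36 FPKM (log2 fold change -0.34, limma adjusted p = 0.00603), Wisp1 from 3.51 ± 0.594 to 2.28 ± 0.297 FPKM and the transcription repressor gene Zfp703 from 37.3 ± 2.06 to 29.0 ± 4.19 FPKM. Id2, named after its values were seen, was the target that rose, from 45.3 ± 7.33 to 58.7 ± 8.66 FPKM (limma adjusted p = 0.0326). Myc was 180.4 ± 10.9 FPKM in vehicle cells and 149.6 ± 41.8 FPKM in treated cells (limma adjusted p = 0.197), with the lowest value, 89.5 FPKM, in YKL-05-099 replicate 4.

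Pan-leukocyte transcripts were lower in the treated libraries, as given above. With the mean of 10 pan-leukocyte markers as a covariate, limma called 2 pathway genes higher and 6 lower, among them Wnt9a, Wnt10b, Ryk, Csnk1d, Tle3 and Ccnd1. Calls became fewer over all genes too, with 505 higher and 290 lower in place of 3304 and 1785. The median standard error over all genes was 0.128 in place of 0.0697. Of the rises named above, only those of Ryk and Csnk1d were still called. The covariate did not overlap between the groups (1.92 to 2.66 in vehicle, 0.606 to 1.5 in YKL-05-099), so its part and that of treatment cannot be told apart there. Among the 10 genes the treated-minus-vehicle difference with the covariate was 2.23 for Sfrp4 (SE 0.177), 0.84 for Lef1 (SE 0.394), 0.19 for Rspo1 (SE 0.211), 0.18 for Znrf3 (SE 0.0807) and 0.17 for Rnf43 (SE 0.175). It was -0.49 for Nkd1 (SE 0.289), -0.44 for Tcf7 (SE 0.198) and -0.42 for Axin2 (SE 0.244). The calls of Kremen1 and Gsk3b, close to the threshold, also ended in other alternatives.

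**Figure D4:**
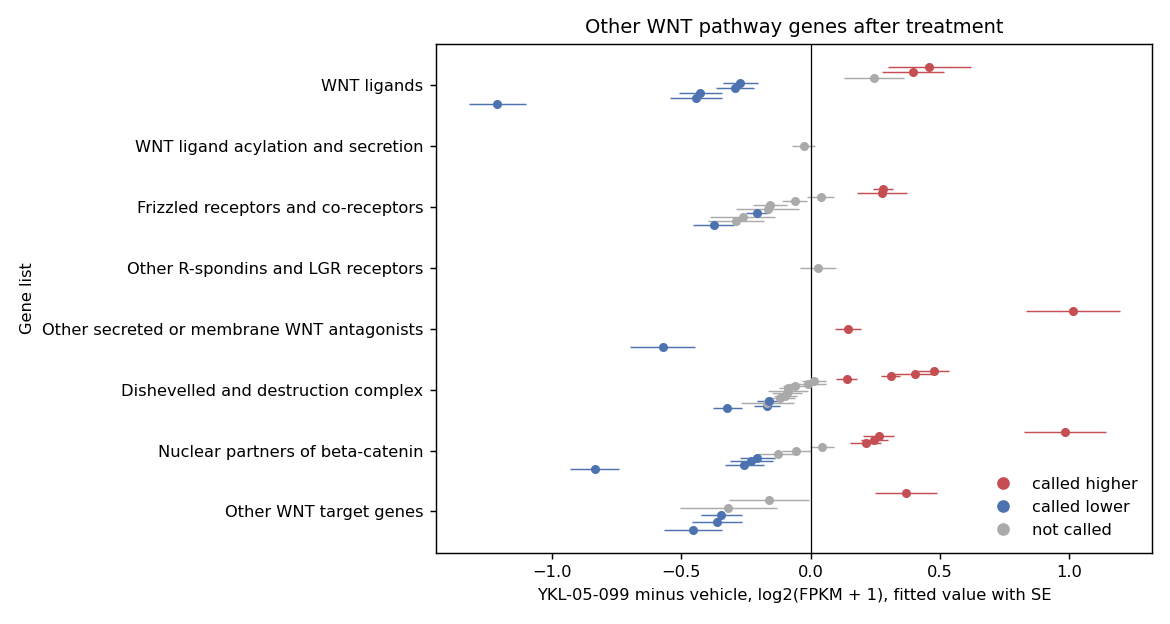
Fitted YKL-05-099 minus vehicle difference in log2(FPKM + 1), with its standard error, for the 56 tested genes of the 8 lists; red and blue points were called higher and lower by limma and gray ones were not called. Wnt9a lies farthest left at -1.21, and Wif1 and Tle2 farthest right at 1.01 and 0.98.

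In culture the other pathway genes were apart from vehicle about as often as all genes. The rule was that of 2 units on log2(FPKM + 1), which compresses low values. Of 61 genes with enough signal, Wnt9a (1.55 FPKM) and Dact1 (0.577 FPKM, vehicle 6.21 ± 0.928) were apart and lower and Wisp1 (54.7 FPKM) was apart and higher, where 3.06% and 2.08% of all genes were. With a pseudocount of 0.1, Lgr6 and Apcdd1 were also apart and higher, and Wnt5b, Sfrp2 and Wif1 also lower. Lgr6 was 0.366 FPKM in vehicle and 3.54 FPKM in culture, and Apcdd1 0.285 and 3.00 FPKM. On the log2(FPKM + 1) scale the median difference from vehicle was -0.26 for the 61 genes and 0.03 for all. Ctnnb1 stood at 152 FPKM, Lrp6 at 27.1 FPKM and Fzd7 at 21.6 FPKM in culture, and vehicle cells held 187, 24.7 and 26.7 FPKM. Ligand transcripts in the cultured library differed from vehicle in both directions. Wnt6 (46.8 FPKM) and Wnt10a (42.7 FPKM) were above their vehicle means of 29.7 and 13.3 FPKM, whereas Wnt4 (15.4 FPKM), Wnt5a (17.9 FPKM) and Wnt5b (3.08 FPKM) were below theirs of 63.0, 32.8 and 12.8 FPKM. The median difference over the 9 ligands with enough signal was -0.41. Lrp6, Fzd7, Lgr6, Apcdd1, Wnt5a and Wnt5b were also named after their values were seen.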

How the data were processed

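Poly(A)-selected, strand-marking RNA libraries of 9 samples were used, grouped by their titles. Per the file headers, the table the authors deposited holds FPKM and an estimation status for every gene in each library. Read conversion with bcl2fastq 2.19 and the build GRCm38 come from the submitters' processing notes. The aligner, quantification program, strand setting and annotation release were not given in the sources used here. Of 48302 rows, 65 repeats of an identifier and 7 genes with a failed estimate were left out, leaving 48230. Coordinates are those of the table, counted from 1.

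FPKM are not counts, so limma 3.58.1 in R 4.3.3 was fitted across all genes on log2(FPKM + 1) of the 8 mouse libraries, with the mean-variance trend and no rescaling, for genes reaching 1 FPKM in 4 or more of them. P-values are two-sided and Benjamini-Hochberg adjusted over 11788 genes. Fold changes on this scale understate those of low genes. Standard errors of the 10 genes are those of the difference of group means. Whole reads could not be recovered; depth was judged from 4217 single-transcript genes. The fit was tested on simulated data. The authors' FPKM allow no counting interval for a single gene.

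The 10 genes and all lists were chosen with earlier results of these data known. Named from each list were up to 3 called genes with the smallest p, the most abundant gene not called, up to 2 genes apart in culture, and Ctnnb1, Apc, Axin1 and Gsk3b. Alternatives were pseudocounts of 0.1 and 0.5, other filters and scalings, a replicate block, a pan-leukocyte covariate, all 9 libraries, leaving out each library, and a 1-unit rule in culture.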

Additional observations from a re-analysis of the deposited data

Results flagged for a closer look

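In 78 groups of 4 libraries (39 genes in the vehicle and YKL-05-099 groups), 3 held a library whose distance to its nearest neighbor took up more of the group's range than Dixon's critical value allows. Chance alone gives about 1 such group in 20. Rspo1 was 131 FPKM in vehicle replicate 4, and the other vehicle libraries were 99.3 to 101 FPKM. Wnt10b was 4.48 FPKM in YKL-05-099 replicate 1, with the others at 3.73 to 3.81 FPKM. Zfp703 was 22.7 FPKM in YKL-05-099 replicate 4, with the others at 30.7 to 31.7 FPKM. Genes named after their values were seen, Wnt4, Wnt6 and Fzd7 among them, were not screened, so the 3 flags do not cover them. In vehicle replicate 4, Wnt4 was 93.1 FPKM (other vehicle libraries 51.8 to 54.8), Wnt6 39.2 (25.9 to 27.4) and Fzd7 33.3 (24.1 to 25.1). Wnt5a, also not screened, was 34.1 FPKM there, within the 30.3 to 34.2 FPKM of the other vehicle libraries.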

How the results depend on the processing

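Under the alternatives, 133 values of the 10 genes' treatment differences moved by less than 1 SD and 7 by more, and no separate gene changed sign. The separate genes numbered 3 higher and 2 lower, with 1 lower (Axin2) after TPM scaling. When a library was left out they numbered 3 to 5 and 2 to 3. Leaving out a library can add a separation but cannot end one, so this range is no check on the separate genes. Leaving out vehicle replicate 4 gave 5 higher. Calls over all genes ranged from 2771 to 3482 higher and 1392 to 2016 lower when a library was left out, and pathway calls from 9 to 16 higher and 13 to 21 lower, with 9 higher without YKL-05-099 replicate 1. Median-of-ratios scaling gave 9 pathway genes higher. The pan-leukocyte covariate left 505 higher and 290 lower over all genes, and 2 and 6 in the pathway. In culture, 4 of the 10 genes were apart and lower (4 to 5 when a library was left out) and 1 higher in each of those fits; for the pathway these were 2 and 1 in each. A 1-unit rule gave 7 of the 10 genes lower, and 10 pathway genes lower and 4 higher. A pseudocount of 0.1 gave 5 pathway genes lower and 3 higher, and moved Rnf43 to -7.84. Same-numbered libraries deviated together at r of -0.05 to 0.17, and 1 of 4 vehicle libraries was most like its own number, so the numbers were not taken as pairs. With the replicate block the calls were 3148 higher and 1682 lower over all genes, and 13 and 19 in the pathway. Low values limit Lef1, and Rnf43 and Nkd1 in culture.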
